A study of Caenorhabditis elegans with 2 samples.

Results

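MicroRNAs are small RNAs that are cut from hairpin precursors and guide Argonaute proteins to messenger RNAs, which they repress. In Caenorhabditis elegans most of them are loaded onto the Argonautes ALG-1 and ALG-2 in the cytoplasm. NRDE-3 is a different Argonaute, which binds antisense small RNAs made on target transcripts and carries them into the nuclei of somatic cells. The genes described here are those listed as microRNA in the count tables, without the 8 loci mir-35 to mir-42, which form a family of abundant embryonic microRNAs. They number 216 of 45510 genes, and reads were added up over all rows of a gene.

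The study pulled down tagged NRDE-3 from embryo lysates with anti-FLAG beads and sequenced the RNA that came with it. The wild-type library was from N2 animals with the tagged protein (3xflag::gfp::nrde-3) grown on OP50 bacteria. The RNAi library was from animals that carried the same tagged protein and the mutations eri-1(mg366) and dpy-13(e458) and that fed, from the first larval stage, on bacteria producing dpy-13 double-stranded RNA. Both were kept at 20 °C. eri-1 encodes an exonuclease whose loss enhances RNA interference, and dpy-13 a cuticle collagen. The sources used here do not name the promoter of the tagged nrde-3. With 1 library per group no difference between the groups could be tested, and the effects of genotype, of food and of library preparation cannot be told apart. No library from beads without the tag or from total embryo RNA was analysed here, so binding to NRDE-3 and carry-over of abundant RNA cannot be told apart. In pooled embryos, fewer cells of a type and less RNA per cell cannot be told apart either.

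Counted reads numbered 7693320 for the wild type and 5537671 for the RNAi library, of which 78.9% and 82.6% lay on ribosomal RNA genes. Levels are sense reads per 1000000 counted reads (RPM), where sense means the strand of the microRNA. A read here is a whole small RNA, so levels were not divided by length. A ratio divides the RNAi level by the wild-type level and is followed, in parentheses, by its exact 95% interval from the binomial split of both counts. A count of 0 allows up to 3 reads, or 0.390 RPM (wild type) and 0.542 RPM (RNAi). Intervals and floors cover counting error only, since amplified reads without molecular identifiers are not independent molecules.

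MicroRNAs outside the mir-35 family were a small part of both libraries. They had 20036 sense reads in wild type, 2604 RPM or 0.260% of counted reads, and 43479 under RNAi, 7852 RPM or 0.785%. The summed ratio was 3.01 (2.96 to 3.07), and 1.04 under TMM, a scaling that sets the bulk of genes equal. The wild-type sum was mostly 1 gene, mir-260, which held 55.1% of the wild-type reads and is described on its own further on. Without mir-260 the sums were 8996 and 43475 reads, 1169 and 7851 RPM, and the ratio was 6.71 (6.56 to 6.87). The mir-35 family, counted in the same way, had 2546 and 12571 sense reads and a ratio of 6.86 (6.57 to 7.16), so with mir-260 left out the intervals of both groups overlapped. These sums rest on few genes, and mir-35 and mir-40 held 6647 and 3001 of the RNAi reads of the family. By gene, the median log2 ratio was 1.82 for the 7 genes of the family with 10 or more sense reads over both libraries. It was 2.31 for the 48 such genes outside the family. Every other class of RNA also had higher sense RPM in the RNAi library. The summed sense ratios were 5.51 (5.29 to 5.75) for transfer RNA, 4.82 (4.63 to 5.02) for small nucleolar RNA and 3.16 (2.90 to 3.44) for small nuclear RNA. They were 2.42 (2.41 to 2.44) for protein-coding genes and 1.320 (1.318 to 1.322) for ribosomal RNA, the lowest of the classes.

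Few microRNA genes carried most of these reads. Of the 216 genes, 111 had no sense read in either library, 57 had 1 to 9 reads over both, and 48 had 10 or more and were measured. At least 1 sense read was seen for 73 genes in the wild-type and 100 in the RNAi library. The 57 sparse genes held 34 and 136 reads in all. Of the 47 loci numbered up to 90, 40 had a read and 27 were measured, with 8095 reads in wild type and 36043 under RNAi. Of the 48 loci from mir-124 to mir-273, 28 had a read and 15 were measured, with 11916 and 7286 reads, the former mostly from mir-260. Of the 88 loci from mir-1018 upward 20 had a read and 4 were measured.

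The level order was led by the same few microRNAs in both libraries once mir-260 was set aside. mir-57, on chromosome II (7850499 to 7850597, minus strand, WBcel235) outside protein-coding genes, is expressed in the posterior of the embryo. It had 1892 reads or 246 RPM in wild type and 11971 reads or 2162 RPM under RNAi. The latter was the highest level of the RNAi library, and the ratio was 8.79 (8.37 to 9.23).

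mir-82, of the mir-58 family, lies on chromosome X (2435258 to 2435354) in an intron of gid-2. It had 2483 and 9152 reads, 323 and 1653 RPM. Its relative mir-81, about 4 kb away on the other strand (2431072 to 2431179), had 1131 and 4038 reads, 147 and 729 RPM. mir-228, known from glial and epithelial cells, is on chromosome IV (5562025 to 5562122). It had 449 and 6227 reads, 58.4 and 1124 RPM, rank 6 among the members in wild type, with mir-260 counted, and rank 3 under RNAi. mir-72 followed with 453 and 1622 reads, 58.9 and 293 RPM.

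The 3 genes with most reads held 61.2% of wild-type reads and 62.9% of RNAi reads when mir-260 was left out, and the first 10 held 84.6% and 86.7%. Of the first 10 genes of each library, with mir-260 kept, 8 were shared. mir-260 and mir-262 were in the first 10 of the wild-type library alone, and mir-55 and mir-73 in those of the RNAi library alone. Several neighbours in the order had close levels. In the RNAi library mir-45, mir-58, mir-55 and mir-44 had 170, 170, 163 and 162 RPM, and the counting intervals of their shares overlapped. In the wild-type library mir-72 and mir-228 differed by 4 reads.

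**Figure D1:**
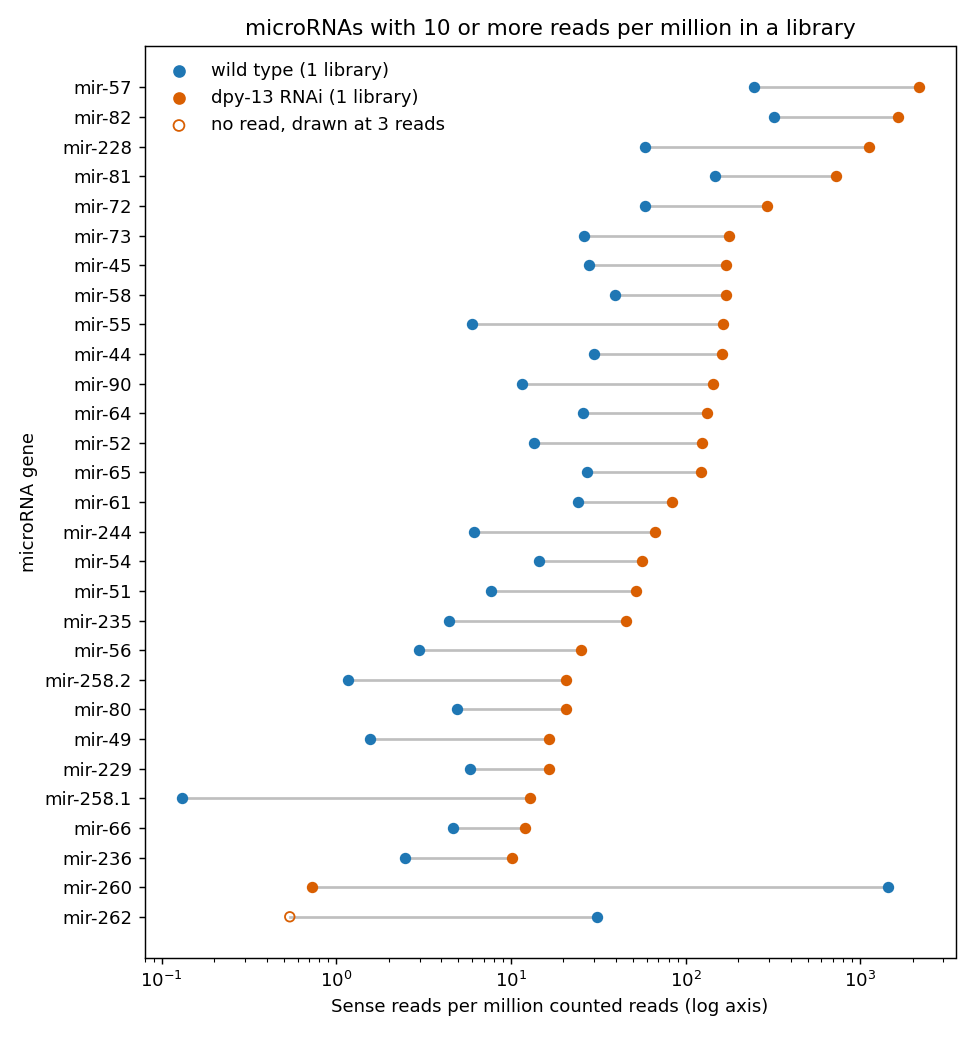
Sense level of the 29 microRNAs with 10 or more RPM in at least 1 library, in sense RPM on a log axis, with 1 point per library and genes ordered by the RNAi level. In 27 genes the RNAi point is the higher one, and in mir-260 and mir-262 the wild-type point is.

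Almost all measured microRNAs, like almost all genes with as many reads, had a higher level in the RNAi library. The ratio was above 1 for 46 of the 48 measured genes, and the counting interval lay wholly above 1 for 42. Of all 7591 genes with 10 or more sense reads, 94.6% had a ratio above 1, a share close to that of the microRNAs. To meet the size rule used here a gene needed 10 RPM or more in 1 of the libraries, a difference of 4-fold or more, and a counting interval that stayed outside 2-fold. By this rule 23 of the 48 were higher and 2 were lower, beside 7.54% higher and 0.263% lower of all 7591 genes with 10 or more sense reads. The minimum of 10 reads over both libraries can be met through the higher library alone. These shares are not matched for level, since 10 RPM stands for 76.9 wild-type or 55.4 RNAi reads and sparser genes cannot be called. Of the 48 microRNAs 27 had 100 or more sense reads over both libraries, and of the 7591 genes 1445 had. The median log2 ratio of the 48 was 2.31, with quartiles of 1.78 and 3.37. Over all 7591 genes it was 1.53, with quartiles of 0.97 and 2.12.

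The general shift of sense reads depends on the scaling. TMM scaling moves every log2 ratio by −1.53, which brings the all-gene median to −0.01 and the microRNA median to 0.78. By the size rule 4 microRNAs were then higher, mir-228, mir-55, mir-90 and mir-258.2, and the same 2 genes were lower, beside 0.553% higher and 0.606% lower of all genes. With median-of-ratios size factors the same 4 and 2 were called, beside 0.553% and 0.646% of all genes. Scaled to reads outside ribosomal RNA, 32 of the 48 were higher and 2 lower, beside 32% and 0.408% of all genes. That scaling moves log2 ratios by 0.27, but 10 RPM then stands for far fewer reads, so sparser genes can be called. With TMM, and likewise with median-of-ratios size factors, 41 of 48 remained above 0, while mir-66, mir-229, mir-86, mir-231 and mir-1829.2 fell below it. Set against the median of all genes, 20 of the 48 had a ratio 2-fold or more above it and 4 had one 2-fold or more below it. Of all genes, 14% were 2-fold or more above and 12.9% were 2-fold or more below.

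The nearest 2 genes on each side of the limits of the size rule were these. mir-236, with 19 and 56 reads and a ratio of 4.09, and mir-80, with 38 and 114 reads and a ratio of 4.17, were just inside. mir-54, with 111 and 310 reads and a ratio of 3.88, and mir-61, with 186 and 463 reads and a ratio of 3.46, were just outside.

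The plot of log2 ratios places each measured gene beside its family. Outside the families described next, mir-90 had 89 and 799 reads, 11.6 and 144 RPM, a ratio of 12.5 (10.01 to 15.7). mir-244 had 47 and 370 reads, a ratio of 10.9 (8.06 to 15.1). mir-235, the worm relative of the miR-92 family and known for holding larval blast cells quiescent, had 34 and 254 reads, a ratio of 10.4 (7.24 to 15.3). mir-228 had a ratio of 19.3 (17.5 to 21.3), whose interval did not overlap that of mir-57, mir-81, mir-82, mir-90 or mir-72.

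**Figure D2:**
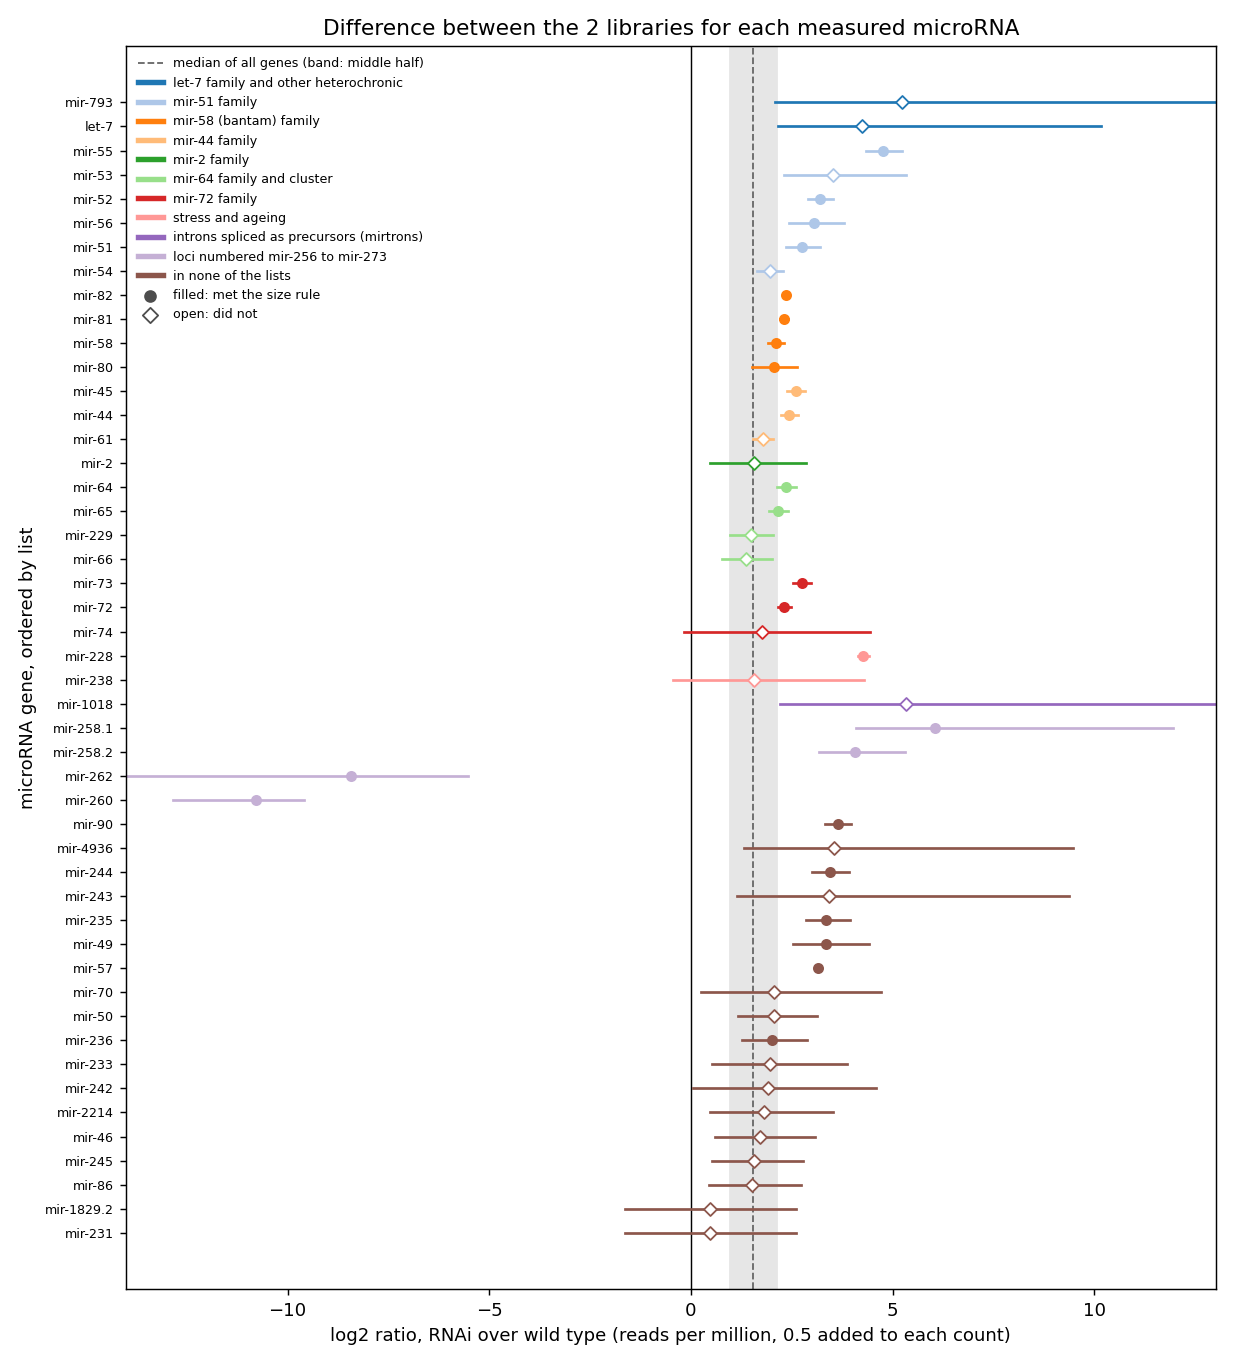
Log2 ratio of RNAi over wild-type sense RPM for the 48 measured microRNAs, ordered by list, with the exact 95% counting interval as a line cut at the axis where it has no limit. Filled points met the size rule, and the dashed line with its grey band is the median of all genes, 1.53, from the lower to the upper quartile. All points but those of mir-260 and mir-262 lie right of 0.

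The mir-51 family, mir-51 to mir-56, is needed redundantly for embryonic development. All 6 members were measured and 4 were higher by the size rule. Their summed sense reads were 348 and 2381, a ratio of 9.51 (8.49 to 10.7), and the median log2 ratio was 3.13. The members differed widely among themselves. mir-55 had 46 and 905 reads, 5.98 and 163 RPM, a ratio of 27.3 (20.3 to 37.6).

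mir-52 had 104 and 692 reads, a ratio of 9.24 (7.51 to 11.5), and mir-51 had 59 and 289, a ratio of 6.81 (5.13 to 9.16). Both lie alone or with mir-53 on chromosome IV. mir-53 had 5 and 45 reads and stayed under the level minimum. mir-54, mir-55 and mir-56 lie together within about 400 bases on chromosome X (13144691 to 13145094, minus strand), in an intron of a gene on the other strand, F09A5.3. Within this cluster mir-54 had a ratio of 3.88 (3.11 to 4.86) and mir-56, with 23 and 140 reads, one of 8.46 (5.42 to 13.8). The intervals of the 3 neighbours did not overlap each other.

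The tables list the annotated mature arms of a hairpin on rows of their own, which showed a further difference for mir-54. Its 5′ arm had 42 reads in the wild-type and 46 in the RNAi library, and its 3′ arm had 16 and 177. The 3′ arm thus made up 27.6% (16.7 to 40.9) of arm reads in the wild-type library and 79.4% (73.5 to 84.5) in the RNAi library. The ratio was 1.52 (0.98 to 2.37) for the 5′ arm and 15.4 (9.20 to 27.5) for the 3′ arm. mir-54 was the exception among the 20 measured genes that have both arms annotated and 20 or more arm reads in each library. In the other 19 the same arm led in both libraries, the 5′ arm in 9 and the 3′ arm in 10, and the lesser arm held at most 4.35% of arm reads in the wild-type and 0.458% in the RNAi library.

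**Figure D3:**
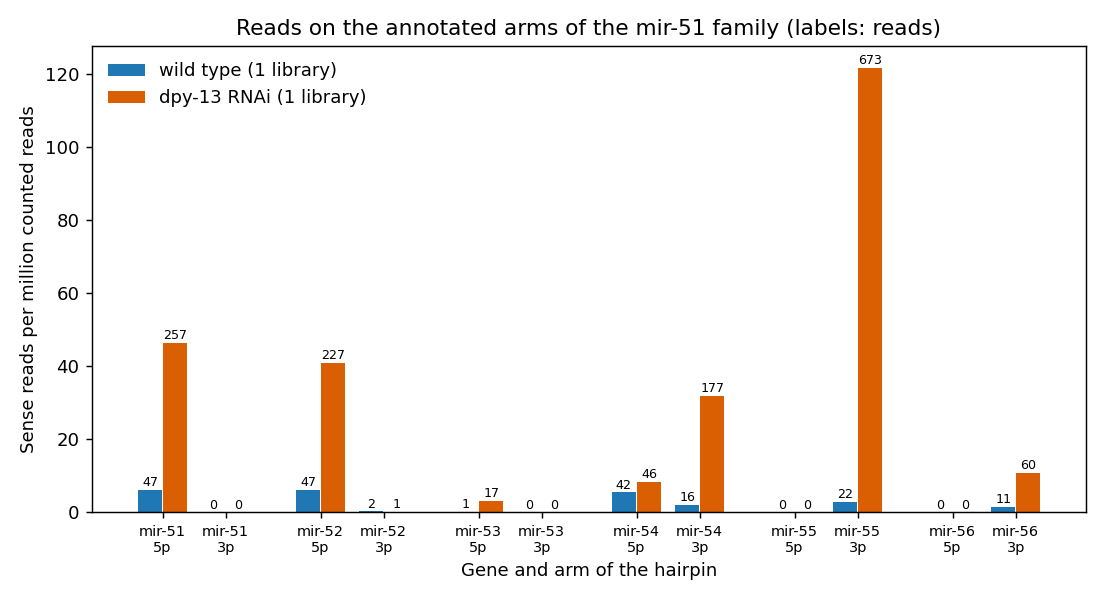
Sense RPM on the annotated 5′ and 3′ arms of the 6 genes of the mir-51 family, with a bar for each library and the read count above it. For mir-54 the 5′ bar is the higher one in the wild-type library (42 against 16 reads) and the 3′ bar in the RNAi library (177 against 46 reads), while mir-55 has reads on its 3′ arm alone.

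The mir-58 family, related to bantam of flies, had the highest summed level of the families on the lists. It had 3957 and 14253 sense reads, 514 and 2574 RPM, a ratio of 5.004 (4.83 to 5.18). Of its 8 matched genes 4 were measured, mir-58, mir-80, mir-81 and mir-82, and all 4 were higher by the size rule. Over all rows of a gene their ratios lay close together, between 4.17 for mir-80 (2.86 to 6.19) and 5.12 for mir-82 (4.90 to 5.36). They were 4.30 for mir-58 (3.77 to 4.90) and 4.96 for mir-81 (4.64 to 5.30). The log2 ratios then spanned 2.05 to 2.36. On mature-arm rows alone they lay further apart, at 1.80 for mir-81, 2.04 for mir-58, 2.16 for mir-80 and 2.84 for mir-82. mir-58 had 305 and 943 reads and mir-80 had 38 and 114. mir-58.2 had no read in either library.

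mir-44 and mir-45 give the same mature microRNA from separate loci on chromosome II (11890023 to 11890118 and 11880944 to 11881039). Reads of the mature form can be placed on either gene, so their separate counts are uncertain. They had 230 and 216 reads in the wild-type library and 899 and 944 in the RNAi library, with ratios of 5.43 (4.69 to 6.30) and 6.07 (5.23 to 7.07). Together with mir-61 the mir-44 family summed to 632 and 2306 reads, a ratio of 5.07 (4.64 to 5.54). mir-61 had a ratio of 3.46 (2.91 to 4.12), an interval below that of mir-44 and mir-45, and mir-247 had no read.

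The mir-64 cluster, mir-229, mir-64, mir-65 and mir-66, lies in an intron of gcn-1 on chromosome III (2172452 to 2173206, plus strand). mir-64 had 199 and 737 reads and mir-65 had 210 and 677, with ratios of 5.15 (4.39 to 6.05) and 4.48 (3.83 to 5.25). mir-229 had 45 and 91 reads and mir-66 had 36 and 67, with ratios of 2.81 (1.94 to 4.11) and 2.59 (1.70 to 3.99), and these 2 did not meet the size rule. The cluster was thus uneven. The host gene gcn-1 had 69 and 129 sense reads, a ratio of 2.60 (1.92 to 3.53), which lay below the intervals of mir-64 and mir-65 and within those of mir-66 and mir-229.

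Over all 12 measured microRNAs that lie in an intron of a host gene with 10 or more sense reads, 7 had a higher ratio than their host. These 12 pairs are not independent, since they have 9 hosts and mir-64, mir-65, mir-66 and mir-229 share gcn-1. The interval of the microRNA lay above that of the host for 3, mir-64, mir-65 and mir-82, and below it for 0. The host of mir-82, gid-2, had 33 and 47 sense reads, a ratio of 1.98 (1.24 to 3.19). In the other 9 pairs the intervals of host and microRNA overlapped.

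The mir-72 family had 658 and 2612 reads, a ratio of 5.51 (5.06 to 6.02). mir-73, on chromosome X (2368765 to 2368863), had 202 and 982 reads, a ratio of 6.75 (5.80 to 7.90), against 4.97 (4.48 to 5.53) for mir-72. This difference was not seen on mature-arm rows alone. There mir-73 had 86 and 706 reads and mir-72 had 53 and 449, with log2 ratios of 3.50 and 3.55. mir-74, next to mir-73 on the same strand, had 3 and 8 reads. Of the mir-2 family, mir-2 alone was measured, with 10 and 22 reads and a ratio of 3.06 (1.39 to 7.23). Another small cluster, on chromosome III, held mir-80, mir-238 and mir-90, whose ratios of 4.17, 3.24 and 12.5 were again uneven. mir-238 rested on 3 and 7 reads.

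The listed microRNAs of larval timing, muscle and neurons had few reads or none. lin-4 and let-7, the founding members of the pathway that times larval development, were nearly absent. lin-4 had 0 reads in both libraries, and let-7 had 1 and 20. Of the let-7 reads, 4 in the RNAi library were on the mature 5′ arm and the other 17 of both libraries on hairpin or primary transcript rows. mir-84 had 1 and 0, mir-241 had 0 and 1, and lin-58, the locus of mir-48, had 2 and 2. The 8 matched genes of this list, which do not include lin-58, summed to 2 and 41 reads, and 2 of them, let-7 and mir-793, were measured. mir-793, a relative of let-7, had 0 and 13 reads, at least 6.02-fold higher.

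mir-1 of muscle and mir-124 of sensory neurons had no sense read, and lsy-6, which sets the asymmetry of a pair of taste neurons, had 1 and 3. None of the 5 muscle and neuron genes was measured. Of the genes linked to stress and ageing, mir-71 had 0 and 1 reads and mir-34 had 0 in both, so that mir-228 made up nearly all of the 452 and 6235 reads of that list. Of the 4 mirtrons, whose precursors are spliced introns, mir-1018 was seen, with 0 and 14 reads, at least 6.48-fold higher. The embryonic mir-35 family, in contrast, had 2546 and 12571 sense reads in all, which matches the labelled stage. All 8 of its genes had a read in both libraries, but mir-41 had 1 in each and mir-38 had 11 and 21.

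mir-260 stood apart from all other members. It lies on chromosome II (3306234 to 3306336, plus strand) and had 11040 sense reads or 1435 RPM in wild type, more than any other member, and 4 reads or 0.722 RPM under RNAi. It was 1987-fold lower in the RNAi library (776 to 7293). mir-262, on chromosome V (18736683 to 18736790, plus strand), had 238 reads or 30.9 RPM in wild type and 0 reads under RNAi, at least 57.1-fold lower. These were the 2 measured members with a ratio below 1.

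The reads of these loci were nearly all counted on the hairpin row. Of the 11040 wild-type reads of mir-260, 76 were on the row of its mature arm (20 bases, 3306302 to 3306321), and 99.3% (99.1 to 99.5) were on the hairpin row. Of the 238 reads of mir-262, 1 was on the row of the mature arm, and 99.6% (97.7 to 99.99) were on the hairpin row. A read that matches a mature arm also matches the hairpin that contains it, so part of such reads goes to the hairpin row for every gene. Among the 31 members with 50 or more reads, however, 4 had 99% or more of their reads on rows other than the mature arms, and these were mir-260, mir-262, mir-258.1 and mir-258.2. In the other 27 the share had a median of 49.3%, from 9.03% for mir-235 to 91.2% for mir-229. All 4 come from the group of 18 loci numbered mir-256 to mir-273, of which no other was measured. Each of the 4 has 1 annotated mature arm, while the other 27 genes have both arms annotated. Reads of an arm without annotation can be counted on the hairpin row alone, so these shares are not directly comparable.

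**Figure D4:**
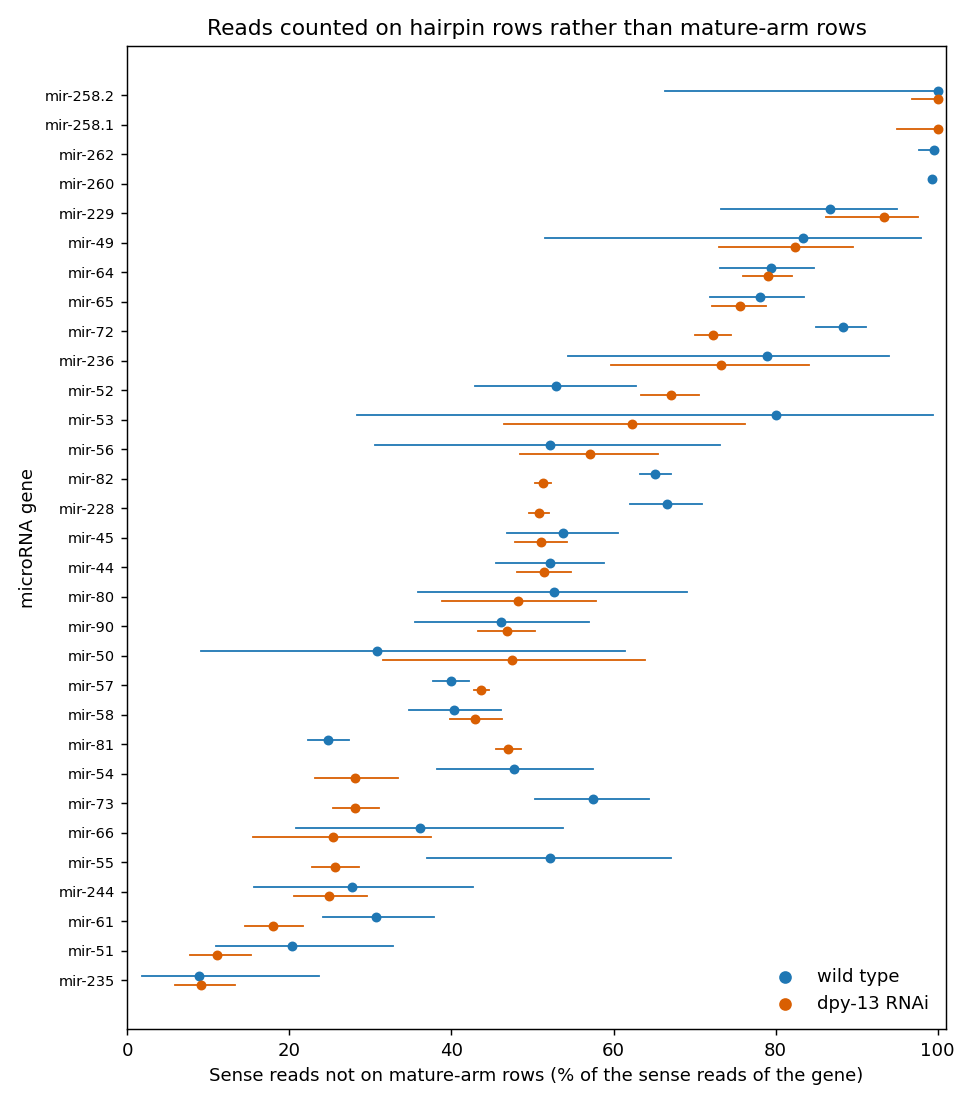
Share of a gene's sense reads counted on rows other than its mature arms, in percent, for the 31 microRNAs with 50 or more reads over both libraries, with the exact 95% counting interval. A library with fewer than 5 reads for a gene is left out. The uppermost 4 genes lie at 99.3% to 100%, and the others, with both libraries added, spread from 9.03% to 91.2%. These uppermost 4 have 1 annotated arm each, and the others have both arms annotated.

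All of mir-260 lies, on the opposite strand, inside an exon of the annotated pseudogene F39E9.7 (exon from 3306144 to 3306503, minus strand). Its sense reads are therefore antisense to that transcript, which has no row of its own in the tables. The surrounding region carried the same strand and library pattern. Within 8000 bases the tables list 9 noncoding RNAs of 18 to 21 bases on the strand of mir-260, with 200 sense reads in the wild-type library, from 6 of them, and 0 in the RNAi library. Of these F39E9.16 had 140 and 0 reads. The protein-coding gene F39E9.6, 5472 bases away and on the other strand, had 66 and 0 antisense reads.

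mir-262 overlaps, over 102 of its 108 bases, the noncoding RNA ZK384.7 (18736689 to 18737785), which is annotated on the other strand and has no row in the tables either. Whether the reads of mir-260 and mir-262 came from these opposite transcripts or from the hairpins was not tested, since the tables hold no positions of reads within a row.

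mir-258.1 and mir-258.2 differed in the other direction. They are a repeated locus on chromosome X (237369 to 237464 and 227953 to 228048), and near-identical copies share reads, so their separate counts are uncertain. mir-258.1 had 1 and 71 sense reads, a ratio of 98.6 (17.1 to 3950), and mir-258.2 had 9 and 114, a ratio of 17.6 (8.95 to 39.5). None of these reads was counted on a mature-arm row, of which each copy has 1. Each copy lies 31 bases from a protein-coding gene on the other strand. That gene had 15 and 385 antisense reads beside mir-258.1 (AC8.10) and 12 and 171 beside mir-258.2 (AC8.3), which have the strand of mir-258. Genes nearby on the strand of mir-258 had antisense reads too, on the other strand, with 10 and 75 for AC8.7 and 8 and 86 for AC8.12. More antisense reads under RNAi were general in the series, with a median of 11.9-fold over the 5751 genes with 10 or more antisense reads. Whether the reads of mir-258 and of these neighbours share an origin was not tested.

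The share of reads counted on hairpin or primary rows, which can include reads of the mature arm, differed between the libraries for some other members. Of the 23 members with 20 or more reads in each library, the counting intervals of the shares lay apart for 10, of which 7 had the larger share in the wild-type library. mir-73 had 57.4% (50.3 to 64.3) on such rows in the wild-type and 28.1% (25.3 to 31.03) in the RNAi library. mir-81 went the other way, with 24.8% (22.3 to 27.4) and 47.0% (45.5 to 48.6). Counted on arm rows alone, the members had 4229 and 22377 reads, a ratio of 7.35 (7.11 to 7.60), and 0 genes were lower by the size rule. mir-260, with 76 and 0 arm reads, then fell just under the level minimum of 76.9 reads. mir-49, mir-81, mir-236, mir-258.1 and mir-258.2 were then no longer higher by the rule, while mir-54 and mir-61 were.

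Some reads with the strand of a microRNA were counted on other genes. Short noncoding RNA genes annotated opposite to mir-45, mir-90, mir-52 and mir-80 had antisense reads, which have the strand of the microRNA. They numbered 97 and 509 for mir-45, 48 and 396 for mir-90, 65 and 397 for mir-52 and 19 and 73 for mir-80, or between 44.9% and 64.0% of the reads counted on the microRNA itself. For mir-46, with 9 and 22 reads of its own, they numbered 6 and 8, and for mir-50, with 13 and 40, they numbered 4 and 19. Adding them gave ratios of 6.45 for mir-45, 12.1 for mir-90, 8.95 for mir-52 and 4.56 for mir-80, against 6.07, 12.5, 9.24 and 4.17 without them. The ratio of mir-46 went from 3.40 to 2.78, and that of mir-50 from 4.27 to 4.82, with which mir-50 met the size rule. Whether these reads were the microRNAs themselves was not tested, and mir-45, mir-90, mir-52 and mir-80 remained higher by the size rule with them added.

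Reads antisense to the microRNA genes were rare. The 216 genes had 22 antisense reads in wild type and 189 under RNAi, a ratio of 11.9 (7.66 to 19.5), close to the median of 11.9-fold over the 5751 genes of the series with 10 or more antisense reads. Sense reads made up 99.9% and 99.6% of reads on the members. Antisense reads were seen for 14 genes in the wild-type and 48 in the RNAi library. mir-79 had 1 and 25 antisense reads beside 1 and 2 sense reads, mir-44 had 2 and 24, and mir-58 had 0 and 17, and no other member reached 10 in a library.

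By genomic position, 56 of the 216 genes lie in an intron of a protein-coding gene on the same strand, 15 of which were measured, with a median log2 ratio of 2.06. Of the 133 that lie outside protein-coding genes and pseudogenes 27 were measured, with a median of 2.76, and of the 19 in an intron on the other strand 4 were, with a median of 2.68. Of the 3 that overlap an exon on the other strand 2 were measured, and these went opposite ways. The log2 ratio was −10.8 for mir-260 and 1.91 for mir-242, which had 3 and 9 reads. Of the 5 that overlap an exon on the same strand 0 were measured. Chromosome X held 68 of the genes and 15 of the 48 measured ones. Of these 15, 8 were higher by the size rule, a share near the 23 of 48 over all chromosomes. Chromosome V held 3 measured genes, of which 0 were higher and 1, mir-262, was lower.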

How the data were processed

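Small RNAs of 20 to 30 nt that came down with NRDE-3 were sequenced in 2 libraries, after phosphatase and kinase treatment per the labels' protocols. The deposited tables hold raw counts, sense and antisense, for each transcript. Per the series' design text the authors used Bowtie2 with default parameters on the WS243 transcriptome. The sources used here give no Bowtie2 version. Columns were taken by position, since the header has fewer names than the lines have fields, and 2 and 3 incomplete lines were left out.

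Here rows were summed per gene (216 members, 579 rows). Positions, arms and overlaps came from Ensembl release 115 (WBcel235), matched by identifier for all 216 genes; the tables hold no coordinates. Log2 ratios had 0.5 added to each count. Intervals were exact (scipy 1.17.1, Python 3.11.15). TMM came from edgeR 4.0.16 and size factors from DESeq2 1.42.0. The calling code was tested on simulated counts. Grouping by seed had been planned and was not done, since mature sequences were not used here.

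Named genes were the first 10 by level in each library, the 10 per direction with the interval bound farthest from 1 among those meeting the size rule, up to 4 measured members of each list by level, and members with 10 or more antisense reads. Other names were chosen after their values were seen. The members, lists and alternatives were chosen with earlier results of these data known.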

Additional observations from a re-analysis of the deposited data

How the results depend on the processing

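Scaling decided how many microRNAs were higher, through the ratios and through the number of reads that 10 RPM stands for. With TMM the summed ratio was 1.04, the median log2 ratio 0.78 and the count of higher genes 4, and with median-of-ratios size factors they were 1.03, 0.76 and 4, where all 4 were among the 23 of the main setting. Scaled to reads outside ribosomal RNA, the summed ratio was 3.65, the median 2.59, and 32 genes were higher, among them all 23, beside 32% of all genes. Under TMM and size factors 10 RPM also stands for more RNAi reads, 94.3 and 94.7 against 55.4. Outside ribosomal RNA it stands for fewer, since the totals are then 1622367 (wild type) and 965522 (RNAi) reads. With that scaling let-7, mir-50, mir-53, mir-243, mir-793, mir-1018 and mir-4936 were gained, all under 10 RPM in the main setting. The other genes gained were mir-54 and mir-61, whose ratios had been under 4-fold. The median log2 ratio was 2.06 with a minimum of 1 read, 2.44 with 100 reads and 2.11 with 5 added to each count. The median of all genes was then 1.70, 1.55 and 1.28, against 2.31 and 1.53 in the main setting. The microRNA median was thus nearest to that of all genes with a minimum of 1 read. With antisense reads included the microRNA median was 2.36. Without mir-260 the summed ratio was 6.71 and 1 gene was lower.

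The next settings were chosen after seeing the data. Without mir-260 and mir-262 the summed ratio was 6.90, the median 2.33 and 0 genes were lower, by construction. On arm rows alone 32 genes were measured, against 48 in the main setting. The summed ratio was then 7.35, the median 2.49 and 0 genes were lower. Of the 32 genes 20 were higher, of which 18 were among the 23, and no share of all genes is given for this setting. Adding reads of opposite-strand noncoding RNAs gave a summed ratio of 3.08. The remaining counts of higher and lower genes stayed within 1.5 times the main counts, and no named microRNA that met the size rule changed direction under these settings, except that mir-258.1 and mir-258.2 have no arm reads and so no value on arm rows alone. No paired analysis was possible because each group had 1 library, and leaving out a library leaves no comparison. Depth limits the 57 genes with 1 to 9 reads, for which 1 read is 0.130 and 0.181 RPM.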
